A study of Mus musculus with 6 samples.

Results

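Id proteins and E proteins are opposing helix-loop-helix factors. The genes described here are Id1, Id2 and Id3 and the E protein genes Tcf3 (E2A), Tcf4 (E2-2) and Tcf12 (HEB). On the arrays they were represented by every probe set annotated to exactly 1 of these genes. These 6 of 12393 genes had 16 of the 20380 probe sets tested: 1 for Id1, 3 for Id2, 1 for Id3, 3 for Tcf3, 6 for Tcf4 and 2 for Tcf12. The set was chosen by its members' function and with their differences between Rad21 shRNA and control arrays already known, those of Id2 and Tcf4 in particular. Differences of these genes from control are therefore given below as a description, without a p-value, and the count under the threshold is printed only beside its background. The comparison between the shRNAs and the related genes outside the set were tested.

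E proteins are transcription factors that pair through their helix-loop-helix segment and bind DNA at the E box through an adjoining basic stretch. Id proteins have the helix-loop-helix segment without the basic stretch, so an E protein paired with an Id protein no longer binds DNA. In blood, E proteins drive lymphoid development, and Tcf4 is needed for plasmacytoid dendritic cells. Id2 is needed for natural killer cells and innate lymphoid cells and for some conventional dendritic cells.

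The cells were lineage-depleted marrow from C57/BL6 mice, 6 to 8 weeks old, infected with a lentivirus, selected with puromycin, sorted as live cells and grown in methylcellulose with cytokines until day 7. The 3 groups were cells with empty vector, with Rad21 shRNA1 and with Rad21 shRNA2, 2 Affymetrix arrays each. Rad21 is a core subunit of the cohesin ring. The control was an empty vector, so the effect of carrying any shRNA and that of Rad21 loss cannot be told apart. The labels do not say whether replicates came from separate animals or cultures, so errors and p-values measure only how these arrays vary, and that variation may be technical.

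Array medians of the deposited intensities lay between 100.2 and 104.9. Rad21 on its brightest probe set stood at 36.0% of control over both shRNAs, with log2 values of 11.14 and 10.49 with empty vector, 9.63 and 9.14 with shRNA1 and 9.50 and 9.11 with shRNA2. Its difference of -1.47 became -1.15 without empty-vector replicate 1 and -1.80 without replicate 2. Of its other probe sets, 1455938_x_at stood at 29.0% of control and the dimmer 1416162_at at 74.3%, the latter with overlapping arrays. Empty-vector replicate 1 stood apart: its Gapdh control probe set at the 3′ end lay 2.42 log2 units above that at the 5′ end, against -0.078 to 0.017 on the other 5 arrays. The empty-vector arrays lay further from their mean (0.342, root mean square over probe sets) than those of shRNA1 (0.155) or shRNA2 (0.146). For the Id and E protein genes, differences from control are therefore also given without each empty-vector array. For the genes of other lists only some of these values are given. The set of general blood cell genes (Ptprc, Laptm5, Coro1a, Spi1, Vav1 and Cd53) averaged 10.83 to 11.36 on every array, and stromal and endothelial genes averaged 5.44 to 5.77.

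E boxes have the letters CANNTG, which read the same pattern on both strands. The 250 bases before the start of Id2 and of Id3 are shown because these genes had mean differences from control of opposite sign. The Id3 arrays overlapped those of control. They are RefSeq sequences of build GRCm38.p6, with E boxes in capitals. The Id2 window is chr12:25096093-25096342 on the minus strand and the Id3 window chr4:136143572-136143821 on the plus strand.
Id2: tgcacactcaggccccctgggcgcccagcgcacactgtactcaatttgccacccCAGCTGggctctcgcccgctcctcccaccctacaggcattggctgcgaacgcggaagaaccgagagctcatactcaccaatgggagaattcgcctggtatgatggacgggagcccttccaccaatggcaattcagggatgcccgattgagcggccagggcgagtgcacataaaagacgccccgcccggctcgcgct
Id3: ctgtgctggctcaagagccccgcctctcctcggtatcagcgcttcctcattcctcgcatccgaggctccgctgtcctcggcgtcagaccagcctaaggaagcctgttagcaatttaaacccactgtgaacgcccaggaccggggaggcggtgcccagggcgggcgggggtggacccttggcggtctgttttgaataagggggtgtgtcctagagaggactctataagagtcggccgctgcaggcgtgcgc

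The Id2 window held 1 E box, CAGCTG, starting 196 bases before the start, and the Id3 window held none. Of 32851 promoter windows of this length, 66.2% held an E box of any kind and 13.0% held CAGCTG, which is itself an E box. Of the 6 genes, 4 had an entry in the table, with 6 windows. The Tcf3 window held 1 E box, CACTTG. Tcf12 had 3 starts, with CAGCTG at the first, CAAGTG at the second and none at the third. A match of letters is no evidence of binding.

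The mean differences of the Id genes from control had different signs. On its brightest probe set (1435176_a_at) Id2, which restrains E proteins in lymphoid and dendritic precursors, had log2 intensities of 12.50 and 12.53 with empty vector, 11.62 and 11.71 with shRNA1 and 10.63 and 10.53 with shRNA2. Both arrays of each shRNA lay below both controls, and the shRNA2 arrays lay lowest. Averaged over the shRNAs Id2 stood at 38.1% of control, a log2 difference of -1.39 ± 0.12 (limma standard error, n = 4 and 2), with shRNA1 at 55.6% and shRNA2 at 26.1%. The empty-vector arrays differed by only 0.033 on this probe set, and the difference was -1.41 without replicate 1 and -1.38 without replicate 2. In bulk RNA, fewer cells that express a gene and less RNA of it per cell cannot be told apart.

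**Figure D1:**
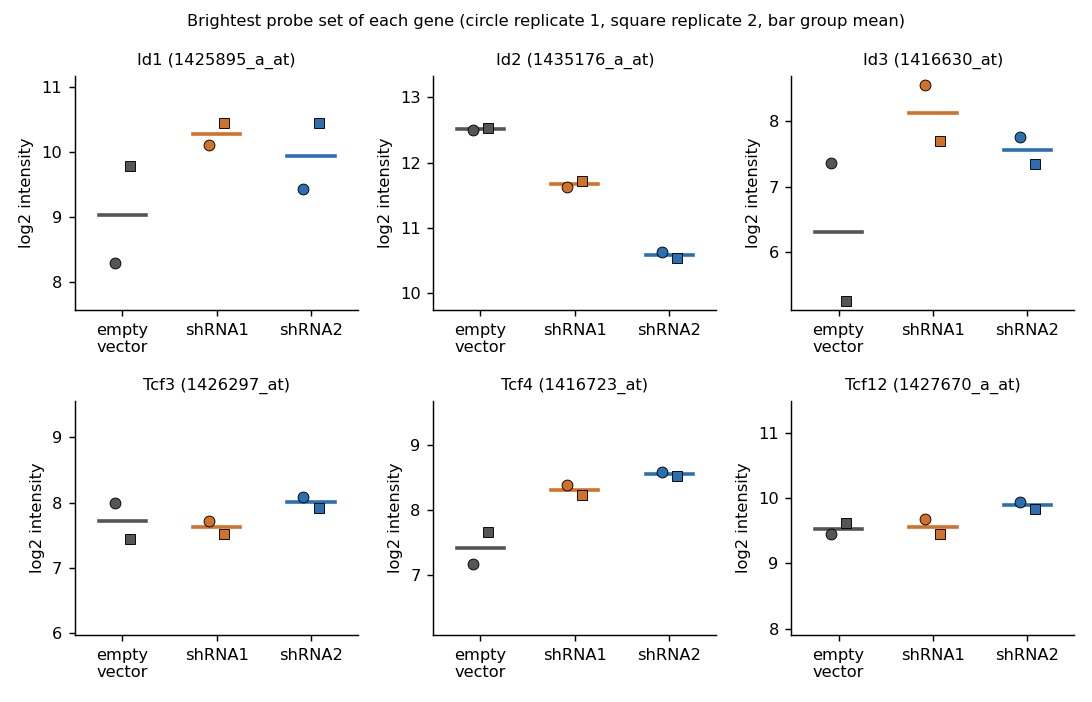
Log2 intensity of the brightest probe set of each gene on the 6 arrays, by group, with circles for replicate 1, squares for replicate 2 and bars for group means; all panels span the same number of log2 units. Id2 steps down from 12.5 with empty vector to about 11.7 with shRNA1 and 10.6 with shRNA2, while Tcf4 lies between 7.17 and 7.67 with empty vector and between 8.23 and 8.58 with either shRNA.

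The other Id2 probe sets depended on which control array was used. On 1422537_a_at the values were 10.22 and 12.38 with empty vector, 11.12 and 11.35 with shRNA1 and 10.21 and 10.17 with shRNA2, so empty-vector replicate 1 lay as low as the shRNA2 arrays. The difference was -0.59 ± 0.57 with all arrays, -1.67 without empty-vector replicate 1 and 0.49, of opposite sign, without replicate 2. On the dimmer 1453596_at the values were 6.75 and 9.12 with empty vector, 6.34 and 7.86 with shRNA1 and 5.20 and 6.25 with shRNA2. There the difference was -1.52 ± 0.78, or -2.71 without replicate 1 and -0.34 without replicate 2. Set against empty-vector replicate 2 alone, all 3 Id2 probe sets were lower with the shRNAs.

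Empty-vector replicate 1 lay 2.17 and 2.37 below replicate 2 on these 2 probe sets. It lay more than 2 log2 units below replicate 2 on 1.19% of all probe sets. Its Gapdh gap of 2.42 stands beside these values, and its part in them was not tested. Where each probe set lies on the Id2 transcript is not given in the sources used here.

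**Figure D2:**
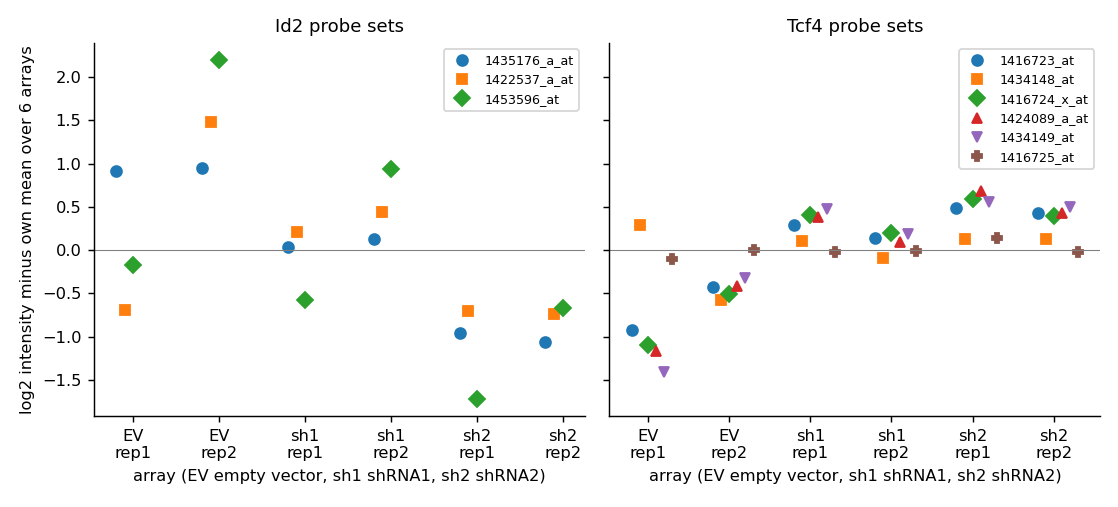
Log2 intensity of each probe set of Id2 (left) and Tcf4 (right) minus its own mean over the 6 arrays, for each array (EV is empty vector, sh1 shRNA1, sh2 shRNA2). The Id2 probe sets lie apart on empty-vector replicate 1 (10.22 against 12.38 on replicate 2 for 1422537_a_at) and are lowest on shRNA2 arrays, and 4 of the 6 Tcf4 probe sets lie lower on both empty-vector arrays than on every shRNA array.

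Id1, an inhibitor known for its part in stem cell and vascular growth, had 1 probe set. Its values were 8.29 and 9.79 with empty vector, 10.10 and 10.44 with shRNA1 and 9.42 and 10.45 with shRNA2. Replicate 1 of shRNA2 lay below replicate 2 of the empty vector, so the groups overlapped. The difference of 1.06 ± 0.49 became 0.31 without empty-vector replicate 1 and 1.82 without replicate 2.

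Id3, which restrains E proteins in B and T cells, also had 1 probe set, with 7.36 and 5.24 with empty vector, 8.55 and 7.70 with shRNA1 and 7.77 and 7.34 with shRNA2. The lowest shRNA array (7.34) lay just under empty-vector replicate 1 (7.36). The difference was 1.54 ± 0.61, and it was 2.60 without empty-vector replicate 1 and 0.48 without replicate 2. For both Id1 and Id3 the size thus rested on the control arrays, which were 1.50 and 2.11 apart, in opposite directions.

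Among the E protein genes, Tcf4 stood higher after knockdown on 4 of its 6 probe sets. On the brightest, 1416723_at, the values were 7.17 and 7.67 with empty vector, 8.38 and 8.23 with shRNA1 and 8.58 and 8.52 with shRNA2. All 4 shRNA arrays lay above both controls. The difference was 1.01 ± 0.18, a 2.01-fold higher level, with 0.76 without empty-vector replicate 1 and 1.26 without replicate 2.

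The 3 other Tcf4 probe sets without overlap gave 1.20 ± 0.21 (1416724_x_at), 1.19 ± 0.25 (1424089_a_at) and 1.29 ± 0.32 (1434149_at). Without empty-vector replicate 1 these were 0.91, 0.82 and 0.75, and without replicate 2 they were 1.49, 1.57 and 1.84, so the size varied with the control array while the sign did not. An ending of x_at marks a probe set that may also detect other transcripts. Probe sets of 1 gene report on shared RNA and are not independent measurements.

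The remaining Tcf4 probe sets differed little. 1434148_at had 8.11 and 7.24 with empty vector, 7.91 and 7.72 with shRNA1 and 7.94 and 7.94 with shRNA2. Its control arrays lay on either side of all 4 shRNA arrays, and its difference was 0.21 ± 0.26, or 0.64 without replicate 1 and -0.23 without replicate 2. The last, 1416725_at, was dim, between 3.45 and 3.70 on all arrays, in the lowest 7.61% of probe sets by mean intensity, with a difference of 0.073 (0.017 and 0.13 without empty-vector replicates 1 and 2).

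Tcf3, whose E12 and E47 proteins start the B cell programme, had no probe set without overlap between shRNA and control arrays. Its brightest probe set, 1426297_at, had 7.99 and 7.44 with empty vector, 7.72 and 7.52 with shRNA1 and 8.08 and 7.92 with shRNA2. The difference over both shRNAs was 0.096 ± 0.20, and it was 0.37 without empty-vector replicate 1 and -0.18, of opposite sign, without replicate 2. The probe set 1427764_a_at gave 0.17 ± 0.21 (0.27 and 0.078 without replicates 1 and 2), and 1452542_x_at gave 0.095 ± 0.16 (0.024 and 0.17).

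Tcf12, an E protein that acts with Tcf3 in T cell precursors, had 9.45 and 9.61 with empty vector, 9.68 and 9.45 with shRNA1 and 9.94 and 9.84 with shRNA2 on 1427670_a_at. The shRNA2 arrays lay above both controls, and the shRNA1 arrays lay on either side of them. The difference was 0.19 ± 0.14, with 0.11 without empty-vector replicate 1 and 0.27 without replicate 2. On the dimmer 1421908_a_at it was 0.45 ± 0.23, with 0.34 and 0.55.

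All 11 E protein probe sets, 6 of them of Tcf4, had positive differences from control with all arrays and without empty-vector replicate 1. That held for 9 of 11 without replicate 2. Of all 20380 probe sets, 9751 were positive with all arrays. Every Tcf3 and Tcf12 probe set had shRNA arrays that overlapped control. The 3 Id2 probe sets were negative, and those of Id1 and Id3 positive. By arrays without overlap, 4 of the 16 probe sets, all of Tcf4, had all shRNA arrays above control, as had 11.7% of all probe sets. In the other direction, 1, of Id2, lay below, as did 12.9%. An adjusted p under 0.05 in the limma fit was found for 1 of 16, that of Id2, and for 0.927% of all probe sets. The set was chosen with this contrast known, and nothing is read from these counts.

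**Figure D3:**
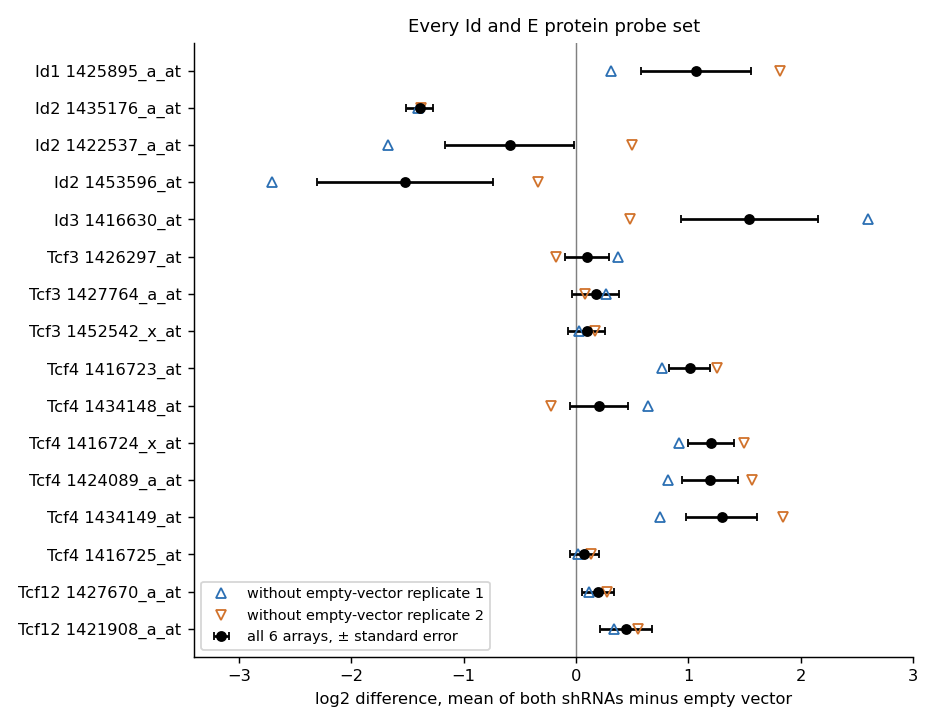
Log2 difference between the shRNA mean and the empty-vector mean for all 16 probe sets (black, ± standard error), and the same without empty-vector replicate 1 (blue upward triangles) or replicate 2 (orange downward triangles). The brightest Id2 probe set stays near -1.39 whichever control is used, while 1422537_a_at of Id2 moves from -1.67 to 0.49 and Id3 from 2.60 to 0.48.

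The shRNAs were compared with each other because that contrast does not use the control arrays, except in the estimate of the spread. It also does not use the mean difference over both shRNAs. If differences from control were known for each shRNA when the genes were chosen, they also give this contrast. Its p-values may therefore not be free of that choice. Id2 was higher with shRNA1 than with shRNA2 on all 3 of its probe sets, by 1.09 ± 0.14 (unadjusted 95% interval 0.74 to 1.45), 1.04 ± 0.66 (-0.60 to 2.69) and 1.38 ± 0.90 (-0.87 to 3.62). The first is a 2.13-fold difference between the shRNA groups. It had an unadjusted limma p of 0.000355 and missed the threshold after adjustment over all probe sets (adjusted p = 0.322). Rad21 itself differed little between the shRNAs, with group means of 9.38 and 9.30.

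The other genes had smaller differences than Id2, and all of their intervals included 0. The 11 probe sets of the 3 E protein genes had differences of -0.57 to -0.075, and each of their intervals included 0. The Id1 and Id3 differences were 0.34 ± 0.57 and 0.57 ± 0.70, with overlapping arrays. Without shRNA2 replicate 1, the Id1 difference turned to -0.18 and that of Tcf4 1416725_at to 0.0088, and without shRNA1 replicate 1 the Id3 difference was 0.14. The largest E protein difference was that of Tcf3 on 1427764_a_at, -0.57 ± 0.24 (interval -1.16 to 0.021), with 6.65 and 6.17 for shRNA1 and 7.18 and 6.78 for shRNA2. Tcf12 differed by -0.33 ± 0.16 (-0.74 to 0.077) on its brightest probe set and Tcf4 by -0.24 ± 0.21 (-0.76 to 0.27).

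None of the 16 passed, with limma adjusted p between 0.322 and 0.99974, and 1 had an unadjusted p under 0.05. Over all 20380 probe sets 0% passed in this comparison, while 873 had an unadjusted p under 0.05. The arrays of the shRNAs did not overlap on 10 of the 16 probe sets, against 40.9% of all. Macrophage genes had a median 0.90 higher with shRNA1, and their summed intensity was 27168 to 30714 with shRNA1 and 12871 to 13011 with shRNA2. Neutrophil precursor genes had a median difference of -0.50, with sums of 64980 to 83137 with shRNA1 and 89906 to 91704 with shRNA2. No gene of either list passed in this comparison. Their part in the Id and E protein values was not tested.

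**Figure D4:**
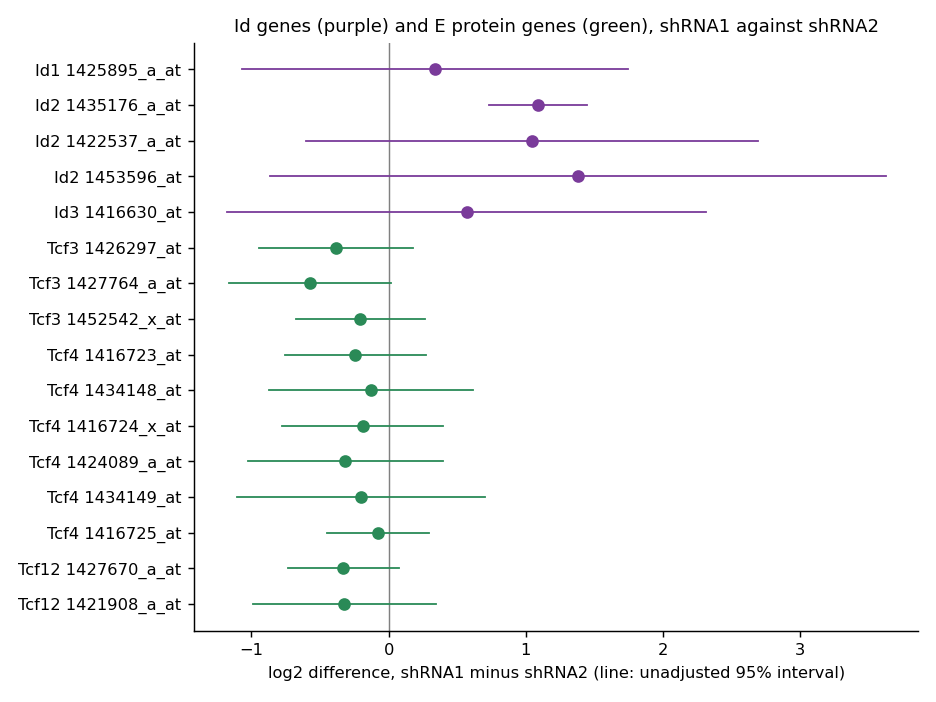
Log2 difference of shRNA1 minus shRNA2 for each probe set with its unadjusted 95% interval, Id genes in purple and E protein genes in green. Every Id point lies to the right of 0 and every E protein point to the left, and the interval of 1 probe set, Id2 1435176_a_at (0.74 to 1.45), leaves out 0.

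Genes that work with Id and E proteins were taken from lists written with earlier results of these data known, each gene represented by its brightest probe set. Across all 12393 genes 0.379% rose and 0.750% fell for both shRNAs against empty vector, and the median difference was -0.023. An unadjusted limma p under 0.05 was found for 2011 of the 12393 genes in this contrast. The unadjusted counts of the lists below stand beside that background. Of 40 other helix-loop-helix genes 1 rose, Tal2, a factor of the Tal family that pairs with E proteins. Tal2 went from 4.96 and 4.18 with empty vector to 7.80 to 8.04 on the shRNA arrays, by 3.39 ± 0.24 (limma adjusted p = 0.0143). All 4 shRNA arrays lay above both controls. The adjusted p was between 0.0637 and 0.0979 when any 1 shRNA array was left out.

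The list's median was -0.038, and 3 of its genes had an unadjusted p under 0.05. Its other members included, chosen after their values were seen, Id4, the remaining Id gene (0.077 ± 0.14), Tal1 (-0.42 ± 0.22) and Lyl1 (0.30 ± 0.15), which pair with E proteins in blood stem cells, and Hes1, a repressor induced by Notch (-1.09 ± 0.18, limma adjusted p = 0.0671).

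None of 24 E protein cofactors, which include the Lmo2 and Ldb1 bridge of blood complexes and the ETO corepressors, passed. In that list 8 had an unadjusted limma p under 0.05 and the median was -0.16. Gata2, a stem and mast cell factor in the same complexes, differed by -0.98 ± 0.23 and Kat2a, a histone acetyltransferase, by 0.54 ± 0.15 (limma adjusted p = 0.141 and 0.194). BMP and TGF-beta signals act through SMAD proteins, and BMP signals induce Id genes in many cell types. None of 33 genes of that list passed, 4 had an unadjusted p under 0.05, and the median was -0.0041. The ligand Bmp7 differed by -1.003 ± 0.154 (limma adjusted p = 0.0625, and 0.0412 with 1 probe set a gene) and Bmp2 by -0.76 ± 0.27 (0.273). Without empty-vector replicate 1, Gata2, Bmp7 and Bmp2 differed by -0.76, -0.87 and -0.37. Without replicate 2 they differed by -1.21, -1.14 and -1.16. Empty-vector replicate 1, with its Gapdh gap of 2.42, was then the only control.

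Of 36 genes that E proteins are known to control in lymphoid cells or in the cell cycle, 2 fell and none rose. Cdkn2a, which encodes the cell cycle inhibitors p16 and p19Arf, had 8.18 and 8.39 with empty vector and 5.75 to 6.05 on the shRNA arrays, a fall of 2.35 on the log2 scale ± 0.14 (limma adjusted p = 0.0102). Blnk, an adaptor of the B cell receptor, had 8.10 and 8.08 with empty vector and 5.74 to 6.54 with the shRNAs, and fell by 1.90 ± 0.14 (0.0145). In both genes every shRNA array lay below both controls. Both missed the threshold when any 1 shRNA array was left out, with limma adjusted p between 0.0547 and 0.0979, and Blnk also with array weights (0.0731). The list's median was -0.14, and 10 of its genes had an unadjusted p under 0.05.

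**Figure D5:**
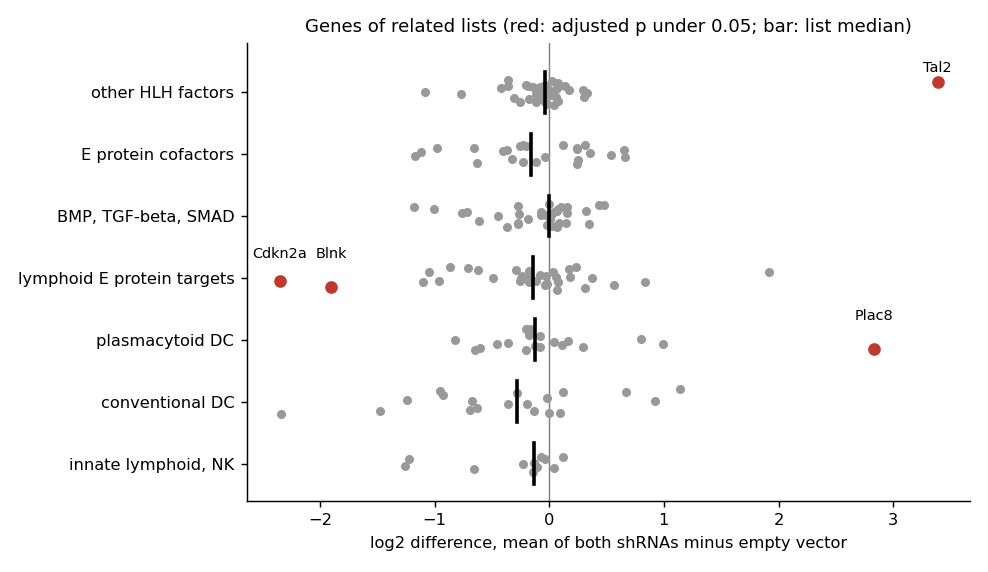
Log2 difference of both shRNAs minus empty vector for genes of 7 lists related to Id and E proteins, 1 point a gene, in red where the limma adjusted p was under 0.05, with a bar at each list's median. Most genes lie near 0, and the 4 that passed are Tal2 (3.39), Cdkn2a (-2.35), Blnk (-1.90) and Plac8 (2.83).

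Dendritic cell genes bear on the pair Id2 and Tcf4. Of 19 plasmacytoid dendritic cell genes 1 rose, Plac8 (2.83 ± 0.23, limma adjusted p = 0.0155, and 0.0731 to 0.114 with array weights or without shRNA1 replicate 1 or either shRNA2 array), which myeloid progenitors also express. The others ranged from -0.83 to 0.99, the list's median was -0.13, and 4 had an unadjusted p under 0.05. Its summed intensity was 3486 to 4280 with empty vector, 6230 to 7716 with shRNA1 and 9366 to 9677 with shRNA2. A sum follows the brightest genes, and 12 of the 19 differences were negative and 7 positive. How much of the sum Plac8 made up was not examined. None of 19 conventional dendritic cell genes passed, 9 had an unadjusted p under 0.05, and the median was -0.28. Their summed intensity was 16126 to 17467 with empty vector, 15507 to 16764 with shRNA1 and 13621 to 16842 with shRNA2. Itgax, or CD11c, differed by -2.34 ± 0.45 and Batf3, a factor of cross-presenting dendritic cells, by -1.47 ± 0.35 (limma adjusted p = 0.0974 and 0.141). The Itgax difference was -2.95 without empty-vector replicate 1 and -1.72 without replicate 2. In both genes every shRNA array lay below both controls.

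Among 11 innate lymphoid and natural killer genes none passed and 3 had an unadjusted limma p under 0.05. The list's median was -0.13, with Eomes, a factor of natural killer cells, at -1.22 ± 0.31 and the granzyme Gzmb at -0.66 ± 0.19 (limma adjusted p = 0.158 and 0.209). The Eomes difference was -1.72 without empty-vector replicate 2, with the array of the Gapdh gap as the only control, and smaller without replicate 1. The list's median was -0.069 without replicate 1 and -0.23 without replicate 2. The T and B cell markers, 8 of each, had no member past the threshold and 1 each at an unadjusted p under 0.05. They averaged 5.19 to 5.39 and 5.10 to 5.59 on the arrays, and stromal and endothelial genes had 0 of 11 past it and 2 at an unadjusted p under 0.05. The members with the smallest p were the immunoglobulin chain Ighm (2.48 ± 0.47) and Cd79b (0.57 ± 0.25) for B cells, Cd3d (0.37 ± 0.13) and Cd4 (-0.26 ± 0.15) for T cells, and Pdgfrb (2.08 ± 0.47) and Vwf (-1.26 ± 0.27) for stroma and endothelium. Ighm and Pdgfrb differed by 3.12 and 2.84 without empty-vector replicate 1 and by 1.85 and 1.32 without replicate 2. Vwf differed by -1.32 without replicate 2 and by less without replicate 1.

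Markers of other myeloid and red cells were set beside Id2 and Tcf4 in the same contrast. Of 12 neutrophil precursor genes 5 rose, among them the granule enzymes Mpo (5.34 ± 0.50), Elane (4.98 ± 0.21), Prtn3 (4.93 ± 0.34) and Ctsg (2.53 ± 0.25), with limma adjusted p between 0.00444 and 0.0229. All 12 lay above control on every shRNA array, as did 1430 of all 12393 genes. The summed intensity of the neutrophil precursor genes was 27405 to 42003 with empty vector, 64980 to 83137 with shRNA1 and 89906 to 91704 with shRNA2. Of 15 mast cell and basophil genes 2 fell, the IgE receptor chain Fcer1a (-2.04 ± 0.26) and the protease Mcpt2 (-2.04 ± 0.25), all 15 differences were negative, and the sum was 47179 to 65784 with empty vector and 29964 to 40679 with the shRNAs. Among 15 macrophage genes the Fc receptor Fcgr1 rose (2.51 ± 0.27) and the scavenger receptor Cd36 fell (-2.94 ± 0.34), and their sum was 18983 to 34854 with empty vector. Without either shRNA2 array none of these genes passed. With array weights Mpo, Prtn3, Ctsg, Fcer1a, Mcpt2, Fcgr1 and Cd36 did not pass (limma adjusted p between 0.0691 and 0.236), and of these all but Prtn3 also missed the threshold with log2(value + 32) and without shRNA1 replicate 1. Erythroid genes had 0 of 10 past the threshold, 4 at an unadjusted limma p under 0.05, and sums of 3324 and 12155 on the empty-vector arrays against 2951 to 3201 with the shRNAs, so that 1 control array held most of the difference. Megakaryocyte genes had 0 of 9 past it and 7 at an unadjusted p under 0.05, with 18921 to 20947 with empty vector and 7996 to 15125 with the shRNAs. The members with the smallest p were Gata1 (-1.17 ± 0.38) and Rhag (-2.77 ± 0.94) for red cells, and the platelet receptors Clec1b (-2.68 ± 0.38, limma adjusted p = 0.0524) and Gp1bb (-2.02 ± 0.36). Without empty-vector replicate 2 these 4 genes differed by -1.79, -4.43, -3.12 and -2.23, in the order named. That left the array with the Gapdh gap as the only control. Without replicate 1, Gata1, Rhag and Clec1b differed by -0.55, -1.11 and -2.25. The erythroid genes averaged a log2 value of 9.29 on empty-vector replicate 1 and 7.42 on replicate 2. Of the 6 general blood cell genes none passed, with Coro1a at 0.61 ± 0.15 and Laptm5 at -0.44 ± 0.18 and 2 at an unadjusted p under 0.05. No marker was at 0 on any array, but RMA intensities are always above 0, so this does not show expression. The part of these cells in the Id and E protein values was not tested.

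For the 4 genes whose brightest probe set had an SD of at least 0.5 over the 6 arrays, the genes with the nearest profile were found by the root mean square distance between log2 values centred on each gene's mean. The nearest to Id2 were Sh3bgrl2 (0.137), the junction molecule F11r (0.139) and the myosin Myo1e (0.141). To Tcf4 they were the DNA repair enzyme Parp1 (0.071), the NAD kinase Nadk (0.084) and Dtd1 (0.089). Id1 was nearest to Tfec (0.158), Calcrl (0.201) and Armt1 (0.210). Id3 had the most distant neighbours, the neutrophil genes Cd177 (0.255) and Ltf, or lactoferrin (0.329), and Mgarp (0.357). The distances rest on 6 arrays that share the same 3 groups.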

How the data were processed

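The deposited table holds 1 intensity for each of 22690 probe sets on 6 arrays, on a linear scale. The submitters' processing notes name RMA as the authors' method, and its version and a genome build were not given in the sources used here. RMA equalizes the arrays and hides any shift in the amount of RNA per cell. The log2 was taken with no pseudocount or further normalization. Gene names came from the platform annotation: 20393 probe sets had 1 gene, 691 several and 1606 none. Leaving out 64 Affymetrix controls gave 20380 probe sets of 12393 genes, 20351 matched by Entrez number to RefSeq (GRCm38.p6).

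One limma fit of the 3 groups (lmFit and eBayes, version 3.58.1, R 4.3.3, 3 residual and 2.65 prior degrees of freedom) gave all differences, two-sided, with Benjamini-Hochberg adjustment over all probe sets. The number of arrays limits the precision. A gene in a list was represented by its probe set with the highest mean. Named from each of 16 lists were up to 4 genes past the threshold of 0.05, largest difference first, or otherwise the 2 with the smallest p, and the 3 nearest profiles. Of 311 list entries, 276 had a probe set. The genes and lists were chosen with earlier results of these data known. The fit was tested on simulated data with known changes. The alternatives tried are given in the closing section. E boxes were searched with Python 3.11.15.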

Additional observations from a re-analysis of the deposited data

How the results depend on the processing

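The alternatives were 1 probe set a gene, leaving out dim probe sets, quantile normalization, median centring, log2(value + 32), an intensity trend, robust eBayes, array weights, a replicate block and leaving out each array. The 189 probe sets called for both shRNAs against empty vector became 106 without the dimmer 50% of probe sets, 79 with log2(value + 32), 14 with array weights and 232 with the replicate block. Leaving out 1 array gave 0 to 5208: 599 and 5208 without empty-vector replicates 1 and 2, 8 and 17 without shRNA1 replicates 1 and 2, and 0 without either shRNA2 array. Between the shRNAs the count of 0 became 96 with array weights, which held Id2 1435176_a_at (1.09, limma adjusted p = 0.0304), and 0 to 5 with an array left out, 5 without either empty-vector array. Array weights were 0.325 for each empty-vector array and 1.60 to 1.92 for the others. The labels do not say that replicate numbers pair samples, and with 2 numbers the data cannot settle it. Deviations of same-numbered arrays correlated over probe sets at 0.165 for empty vector with shRNA1 and 0.129 for empty vector with shRNA2. For shRNA1 with shRNA2, the comparison tested here without pairing, the correlation was 0.616. With the replicate block the count between the shRNAs stayed at 0. Of the genes named, Itgax, Batf3 and Ighm passed with it (limma adjusted p = 0.0449, 0.0408 and 0.0408) and Mcpt2 did not (0.0568).

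Of the member values against control, 225 of 241 under the alternatives moved by less than that probe set's own spread between replicates. The other 16 were all fits without an empty-vector array. Selecting probe sets, the intensity trend, robust eBayes, array weights and the replicate block cannot move these differences. Part of the count was therefore fixed in advance. On Id2 1453596_at, where the spread was wide, -2.71 and -0.34 without an empty-vector array also counted as within it. The difference of Id2 1435176_a_at stayed between -1.44 and -1.37, and that of Tcf4 1416723_at between 0.76 and 1.26. Of the tests of listed genes, 420 of 502 stayed on their side of the threshold, 57 lost a call and 25 gained one.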

Other observations

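Id4, the Id gene outside the set described, was dim on all 3 of its probe sets, with log2 differences from control between -0.089 and 0.10. Gfi1, a repressor of granulocyte precursors that stands in the lists of lymphoid E protein targets and of neutrophil precursors, differed by 1.91 ± 0.47 (limma adjusted p = 0.153), and by 1.21 without empty-vector replicate 1. The cell cycle inhibitor Cdkn1a, like Cdkn2a on the list of E protein targets, differed by -0.97 ± 0.17 (limma adjusted p = 0.0792). Both were named after their values were seen.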
